A study of Homo sapiens with 12 samples.

Results

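The 10 genes described here, HSPA5, HSP90B1, CALR, HYOU1, DNAJB9, SDF2L1, PDIA4, HERPUD1, XBP1 and ERN1, encode chaperones and folding enzymes of the endoplasmic reticulum (ER) and components of the unfolded protein response (UPR). They were chosen by symbol from the 58735 genes of the expression table, with earlier results of these data known. All 10 passed the filter on low values, a mean of 1 FPKM over the libraries compared, in every comparison. RNA sequencing had been performed on 2 human lines, KGN and COV434. The study's methods describe both as coming from ovarian granulosa cell tumors (GCTs), KGN as adult-type and COV434 as juvenile-type. Each line was sequenced untreated or after 72 h with 77-39, a small-molecule inhibitor of the mitochondrial deacetylase SIRT3, with 3 libraries in each of the 4 groups. All cells are labelled as wild-type. The labels give the amount of 77-39 as 10 with a unit that does not tell µM from µg/mL, and the same text stands on the untreated libraries, whose titles call them controls.

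Secretory and membrane proteins are folded in the ER, where chaperones hold unfolded chains and disulfide isomerases join their cysteines. When unfolded proteins accumulate, 3 sensors in the ER membrane, IRE1α (encoded by ERN1), PERK (EIF2AK3) and ATF6, start the UPR. IRE1α splices the mRNA of XBP1, which is then translated into an active transcription factor, ATF6 is cut to release another, and PERK slows translation while favoring that of ATF4. XBP1 and ATF6 act through ER stress elements in the promoters of chaperone genes and of genes for ER-associated degradation (ERAD), the route by which misfolded proteins reach the proteasome. A gene-level read count does not separate spliced from unspliced XBP1 mRNA, and the activation of the sensors was not measured.

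The libraries held 15547851 to 18280415 reads on genes, recovered from FPKM (fragments on a gene, scaled for gene length and sequencing depth) and gene length. Spread between replicates was wider in COV434, where a chi-square comparison of recovered reads gave 15.6 to 89.9 per gene, against 2.36 to 8.36 in KGN and 1 for counting error alone. Several identity markers went against the labels. FOXL2, the granulosa cell transcription factor whose mutant form KGN cells are known to express, had 0 to 0.0195 FPKM in the libraries labelled KGN and 11.5 to 14.0 FPKM in those labelled COV434. SMARCA2, a chromatin remodeler that COV434 cells are known to lack, had 0.00296 to 0.00870 FPKM in the libraries labelled KGN and 4.51 to 6.48 FPKM in those labelled COV434. SMARCA4, also among the identity markers, was present in both, at 2.25 to 2.60 and 6.51 to 12.6 FPKM. KRT8, a keratin of epithelial cells, reached at most 0.0627 FPKM in the libraries labelled KGN and lay between 137 and 264 FPKM in those labelled COV434, and FSHR, the receptor for follicle-stimulating hormone, had 0 reads in all 12. WT1, a transcription factor of the gonads, lay between 45.9 and 61.4 FPKM in the libraries labelled KGN and had 0 reads in those labelled COV434, and AMH, the anti-Müllerian hormone, was present in both, at 4.07 to 4.83 and 5.45 to 9.14 FPKM. Of the other epithelial markers EPCAM and CDH1 stayed under 0.23 FPKM in all 12, and PAX8 was higher in the libraries labelled KGN. KGN and COV434 therefore denote the libraries with those labels throughout, and every statement on a line rests on its label.

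The summed FPKM of the 13 identity markers was 64.4 to 70.2 in untreated and 53.9 to 55.7 in treated libraries of KGN, and 36.8 to 45.4 and 34.5 to 37.9 in those of COV434. For the 8 epithelial markers the sum was 2.39 to 2.51 and 1.88 to 2.36 in KGN, and 451 to 584 and 377 to 476 in COV434, and for the 6 fibroblast markers 40.1 to 42.4 and 38.5 to 40.4, and 79.0 to 202 and 107 to 191. In KGN WT1 alone, at 45.9 to 61.4 FPKM, made most of the identity sum. In COV434 KRT8 (137 to 264 FPKM) and KRT18 (161 to 223 FPKM) made most of the epithelial sum. The part of the shifts of these sums in the results was not tested. SIRT3 itself, the target of the compound, had 4.29 ± 0.0675 FPKM (SD, n = 3) in untreated and 4.04 ± 0.468 FPKM (SD, n = 3) in treated KGN, and 3.82 ± 0.432 and 4.38 ± 0.880 FPKM (SD, n = 3) in COV434, with limma adjusted p-values of 0.475 and 0.929.

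Promoters of the 10 genes were read to show which carry a known ER stress element. RefSeq sequences from 250 bases before to 50 bases after each start site (GRCh38.p14) were given for all 10, with 2 windows for XBP1 and PDIA4. Both strands were searched for ERSE (CCAAT, any 9 bases, then CCACG), the element through which ATF6 and XBP1 act together with NF-Y, for ERSE-II (ATTGG, any base, then CCACG), and for the core of the UPR element bound by XBP1, TGACGTGG. ERSE matched 27 of 35116 promoter windows (0.0769%), ERSE-II 19 (0.0541%) and the UPR element core 256 (0.729%). ERSE or ERSE-II matched 46 windows (0.131%), and 7 of the 10 genes had such a match, counted by gene and not by window. Because these elements are known from promoters of ER chaperone genes, the count describes the 10 genes and is no test of enrichment. The matches are shown in the direction of the element, with its fixed bases in capitals and the adjoining bases in lower case, because they are what most of these genes share in sequence.
HSPA5 (ERSE, chr9:125241391-125241409): caCCAATcggcggcctCCACGac
HSP90B1 (ERSE, chr12:103930216-103930234): gaCCAATcggaaggagCCACGct
HSP90B1 (ERSE on the strand opposite to the gene, chr12:103930321-103930339): caCCAATcgcgccgcaCCACGca
CALR (ERSE on the strand opposite to the gene, chr19:12938384-12938402): gaCCAATgatggtcgaCCACGcg
XBP1 (ERSE, chr22:28800603-28800621): ggCCAATcgcggagggCCACGac
HERPUD1 (ERSE-II, chr16:56932025-56932035): cgATTGGgCCACGtt
SDF2L1 (ERSE-II on the strand opposite to the gene, chr22:21642114-21642124): tgATTGGtCCACGct
HYOU1 (ERSE-II on the strand opposite to the gene, chr11:119057380-119057390): ggATTGGaCCACGtc
HYOU1 (ERSE-II on the strand opposite to the gene, chr11:119057274-119057284): tcATTGGaCCACGtc
HYOU1 (UPR element core, chr11:119057386-119057393): cgTGACGTGGtc

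The UPR element core of HYOU1 overlapped the farther of its ERSE-II matches. The nearest match to a start site was that of XBP1, whose bases ran from -52 to -34, followed by that of HSPA5 from -66 to -48. The farthest was that of CALR, from -225 to -207. DNAJB9, ERN1 and PDIA4 held no match in these windows, which says only that these letters are not there. Their RefSeq start sites lay inside the genes as annotated in the expression table. The offset in bases was 306 for DNAJB9 on the plus strand, and -675 for ERN1 and -151 and -3332 for PDIA4 on the minus strand. Sequence before the annotated start was therefore not searched for DNAJB9 and ERN1, and only in part for PDIA4. HSP90B1, which held matches, had an offset of 303 on the plus strand. Of 91 other genes of the pathway, 78 had a window, and 4 of them, CANX, CRELD2, ERO1B and PDIA6, held an ERSE and none an ERSE-II.

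**Figure D1:**
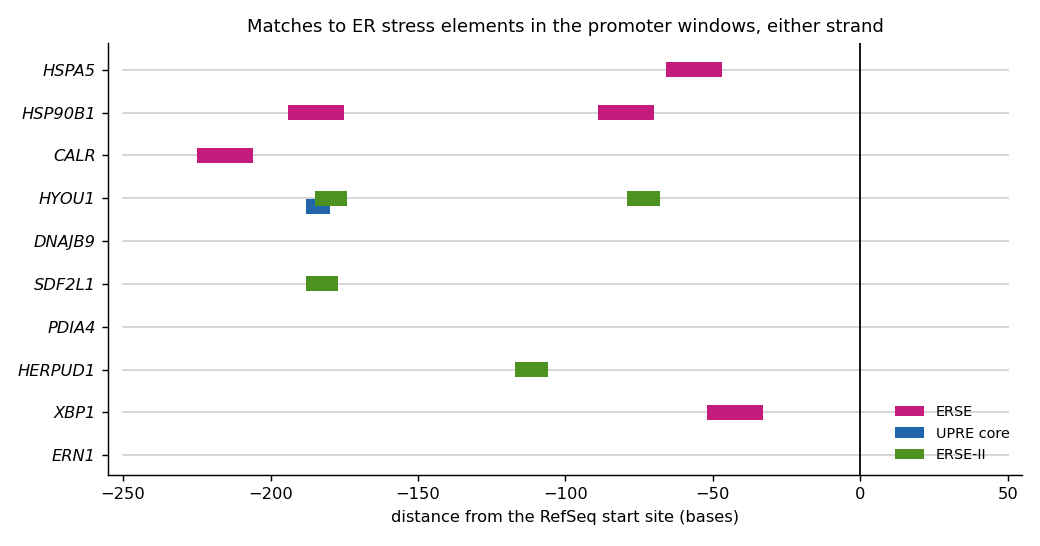
Positions of ERSE, ERSE-II and UPR element core matches in the promoter windows of the 10 genes, as the distance in bases from the RefSeq start site (0, vertical line), on either strand. The windows run from 250 bases upstream to 50 downstream, 7 of 10 genes hold an ERSE or ERSE-II, and all matches lie upstream of the start.

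The 250 bases upstream of the HSPA5 start (chr9:125241344-125241593, minus strand) show the ERSE in capitals and, within the lower-case bases, further CCAAT boxes that no CCACG follows at this spacing.
HSPA5 promoter: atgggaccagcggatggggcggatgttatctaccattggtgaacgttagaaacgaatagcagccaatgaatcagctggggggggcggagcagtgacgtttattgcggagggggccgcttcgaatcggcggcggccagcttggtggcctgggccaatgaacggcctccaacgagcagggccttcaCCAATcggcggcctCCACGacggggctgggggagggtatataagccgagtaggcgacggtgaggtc
In the 250 bases upstream of HYOU1 (chr11:119057206-119057455, minus strand), read along the gene, both ERSE-II matches appear as the reverse complement of the element, and the first run of capitals also holds the UPR element core.
HYOU1 promoter: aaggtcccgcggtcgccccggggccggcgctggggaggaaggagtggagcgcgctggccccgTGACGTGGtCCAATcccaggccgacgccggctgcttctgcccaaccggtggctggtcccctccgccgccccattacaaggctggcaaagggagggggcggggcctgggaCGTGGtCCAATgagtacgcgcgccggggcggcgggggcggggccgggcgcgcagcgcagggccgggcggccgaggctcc

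Whether 77-39 changed the ER genes was asked first in KGN, where untreated and treated libraries were compared with limma on log2(FPKM + 1). ER chaperone and UPR genes were broadly upregulated. Of the 10 genes, 8 had a higher level after 77-39 at a Benjamini-Hochberg adjusted p-value under 0.05 and 0 a lower one, where 17.6% of the 12671 genes tested were higher. The 10 genes were chosen with earlier results of these data known, so this share is a background and not a test. At an unadjusted p-value under 0.05, the study's own threshold, the counts were also 8 and 0, against 23.7% of genes higher and 21.6% lower. The median log2 fold change of the 10 was 0.47, against 0.01 over all genes tested. Treated and untreated libraries did not overlap in 9 of the 10, all in the upward direction, a pattern seen in 26.3% of genes. The libraries are numbered as in the labels, nothing says that they came from separate cultures, and p-values measure the spread between these samples only, which may be technical.

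The luminal chaperones come first. HSPA5 (ENSG00000044574, chr9:125234853-125241330, minus strand) encodes BiP, the Hsp70 of the ER, which also holds the UPR sensors inactive. Its FPKM was 62.9, 59.6 and 57.0 in untreated and 89.7, 90.8 and 87.1 in treated KGN libraries. All treated libraries lay above all untreated ones, with a ratio of mean FPKM of 1.49 and a log2 fold change of 0.57 (SE 0.0508, limma adjusted p = 0.000596). HYOU1 (ENSG00000149428, chr11:119044189-119057202, minus strand) encodes an ER chaperone of the Hsp110 family that exchanges nucleotide on BiP. Its FPKM went from 29.2, 28.1 and 28.0 to 48.4, 46.4 and 46.7, a ratio of 1.66 and a log2 fold change of 0.71 (SE 0.0417, limma adjusted p = 0.000176). Its replicates were close, with an SD of 0.639 FPKM in untreated and 1.07 FPKM in treated libraries.

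DNAJB9 (ENSG00000128590, chr7:108569568-108574850, plus strand) encodes ERdj4, a J-domain co-chaperone of BiP that serves ERAD and keeps IRE1α in check. It showed the highest log2 fold change of the 10 genes, 0.83 (SE 0.0436, limma adjusted p = 0.000139), as its FPKM went from 8.76, 8.64 and 8.49 to 15.6, 16.7 and 16.1. The start of this gene overlaps PNPLA8 and THAP5 on the other strand, which had 3.78 to 11.8 and 4.81 to 8.56 FPKM, and reads of overlapping genes cannot be told apart where strand was not counted. CALR (ENSG00000179218, chr19:12938578-12944489, plus strand) encodes calreticulin, a calcium-binding lectin chaperone for glycoproteins. It had the highest level of the 10, at 220.2, 195 and 191 FPKM in untreated and 257, 252 and 264 FPKM in treated libraries, a log2 fold change of 0.35 (SE 0.0671, limma adjusted p = 0.00842). With the spread of all 12 libraries shared, CALR no longer passed the threshold (adjusted p = 0.167).

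HSP90B1 (ENSG00000166598, chr12:103930107-103953645, plus strand) encodes GRP94, the Hsp90 of the ER. It measured 130.3, 125 and 130.1 FPKM in untreated and 140.2, 145 and 148 FPKM in treated KGN libraries, so the groups were apart but by little. The log2 fold change was 0.17 (SE 0.0468, limma adjusted p = 0.032), and this call was lost in 5 of 6 fits that left out a library, all but the one without untreated library 1, and with the library number as a block (adjusted p = 0.0969). SDF2L1 (ENSG00000128228, chr22:21642261-21644298, plus strand), which encodes a partner of ER-resident J-domain proteins, had 26.2, 20.9 and 24.4 FPKM without and 19.8, 21.5 and 25.2 FPKM with 77-39. The groups overlapped, and the 95% interval of the log2 fold change ran from -0.36 to 0.15 (limma adjusted p = 0.502). PDIA4 (ENSG00000155660, chr7:149003062-149028641, minus strand), which encodes the protein disulfide isomerase ERp72, measured 70.9, 71.8 and 69.3 FPKM without and 73.4, 75.8 and 72.8 FPKM with 77-39. These groups did not overlap, but the log2 fold change of 0.07 (95% interval -0.03 to 0.16) did not pass the test (limma adjusted p = 0.266).

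**Figure D2:**
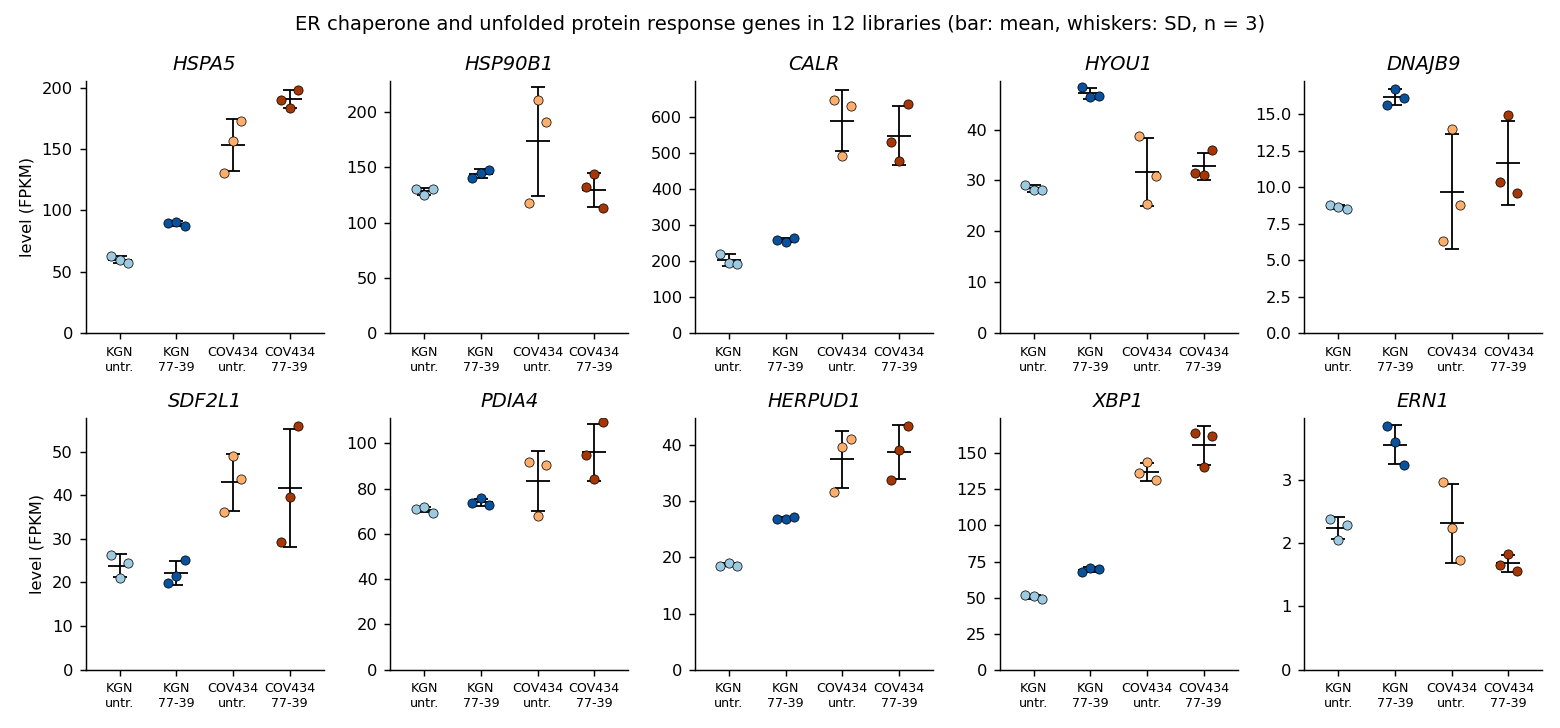
FPKM of the 10 genes (vertical axes, each from 0) in the untreated and 77-39 libraries labelled KGN and COV434. Points are libraries, horizontal bars means and whiskers SD (n = 3). Treated and untreated KGN libraries do not overlap for 9 of 10 genes, whereas for COV434 only HSPA5 shows no overlap.

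Of the remaining genes of the 10, 2 belong to IRE1α signaling. ERN1 (ENSG00000178607, chr17:64039142-64130819, minus strand), the kinase and endoribonuclease itself, was the lowest of the 10 genes, at 2.38, 2.05 and 2.28 FPKM in untreated and 3.84, 3.59 and 3.23 FPKM in treated KGN libraries. These levels rested on 381 to 757 reads per library, and the log2 fold change was 0.49 (SE 0.0753, limma adjusted p = 0.00368). XBP1 (ENSG00000100219, chr22:28794555-28800597, minus strand), the transcription factor whose mRNA IRE1α splices, went from 51.5, 51.4 and 48.8 to 67.7, 70.8 and 69.6 FPKM. Its log2 fold change was 0.45 (SE 0.0446, limma adjusted p = 0.000825). HERPUD1 (ENSG00000051108, chr16:56932048-56944863, plus strand) encodes an ER membrane protein that organizes the ERAD complex around the ubiquitin ligase HRD1. Its 3 untreated libraries measured 18.5, 19.0 and 18.5 FPKM and its treated libraries 26.9, 26.9 and 27.2 FPKM, the tightest replicates of the 10 genes in KGN relative to their mean. The log2 fold change was 0.51 (SE 0.0379, limma adjusted p = 0.000344).

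Added over the 10 genes, FPKM lay between 577 and 621 in untreated and between 743 and 760 in treated KGN libraries. In bulk RNA a change in the share of cells that express a gene and a change in RNA per cell cannot be told apart. The order of levels in untreated KGN was CALR, HSP90B1, PDIA4, HSPA5, XBP1, HYOU1, SDF2L1, HERPUD1, DNAJB9 and ERN1, and no neighbours in it overlapped. After 77-39 HSPA5 stood above PDIA4 and HERPUD1 above SDF2L1, again without overlap between neighbours. Of the 7 genes with an ERSE or ERSE-II match, 6 were upregulated in KGN, and of the 3 without a match in the windows searched, 2 were. The gene with an ERSE-II that did not pass the test was SDF2L1.

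In COV434 the same comparison gave no call. Of the 10 genes, 0 passed the adjusted threshold in limma and 0 an unadjusted p-value under 0.05. The background was low as well, at 0.00829% of 12060 genes called higher and 0.0332% called lower, and 3.52% and 4.49% at an unadjusted p-value under 0.05. Same-numbered treated and untreated libraries deviated together in COV434 for numbers 1 and 2, and less clearly for number 3. With the number as a block the count of the 10 stayed at 0, where 0.323% of genes were called higher and 0.398% lower. At an unadjusted p-value under 0.05 the block gave 1 of the 10, HSPA5, which was higher, where 6.85% of genes were higher. By voom on the recovered reads the count at the adjusted threshold was also 0. Mitochondrially encoded genes took 7.71% to 13.5% of the reads of these libraries, most in treated library 1, and the part of this in the result was not tested.

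HSPA5 came nearest. It measured 131, 157 and 173 FPKM in untreated and 190.2, 184 and 198 FPKM in treated COV434 libraries, and was the only gene of the 10 whose groups did not overlap, where 6.23% of genes showed this in the upward direction. The log2 fold change of 0.32 (SE 0.168, 95% interval -0.07 to 0.71) had an adjusted p-value of 0.731 in limma, and 0.27 with the block. HSPA5, DNAJB9 and PDIA4 were higher in all 3 same-numbered pairs and ERN1 lower in all 3, patterns found in 17.9% and 18.9% of genes.

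Replicates of the other genes were further apart. DNAJB9 had 6.27, 14.0 and 8.79 FPKM in untreated and 10.3, 14.9 and 9.62 FPKM in treated COV434 libraries, so that its untreated libraries alone differed more than the groups. HSP90B1 measured 118, 211 and 191 FPKM without and 132, 144 and 113 FPKM with 77-39, and its 95% interval of -0.94 to 0.17 on the log2 scale reached from a large decrease to an increase as large as that in KGN. ERN1 had 2.97, 2.24 and 1.73 FPKM without and 1.65, 1.82 and 1.56 FPKM with 77-39, a log2 fold change of -0.29 (95% interval -0.70 to 0.12). Treated libraries 1 and 3 lay under the untreated range and treated library 2 inside it.

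XBP1 measured 137, 144 and 131 FPKM in untreated and 164, 140.2 and 162 FPKM in treated COV434 libraries, with treated library 2 inside the untreated range. CALR measured 646, 491 and 629.5 FPKM without and 529, 477 and 635 FPKM with the compound. PDIA4 had 91.6, 67.8 and 90.3 FPKM in untreated and 94.6, 84.1 and 109 FPKM in treated libraries. In each of these the ranges overlapped, and the 95% intervals of the log2 fold changes included 0 (-0.18 to 0.53 for XBP1, -0.57 to 0.36 for CALR and -0.22 to 0.63 for PDIA4).

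The COV434 libraries of HERPUD1 measured 31.7, 39.6 and 41.0 FPKM without and 33.8, 39.1 and 43.4 FPKM with 77-39. Those of SDF2L1 measured 36.1, 49.0 and 43.7 FPKM and 29.3, 39.7 and 55.9 FPKM. For HYOU1, the gene with the second highest fold change in KGN, they measured 38.7, 25.3 and 30.9 FPKM and 31.4, 31.0 and 35.9 FPKM. The log2 fold changes of these genes, 0.05, -0.08 and 0.07, were smaller than their SE, and the 95% intervals (-0.34 to 0.44, -0.64 to 0.48 and -0.35 to 0.48) left room for changes of either sign. By level, CALR stood highest and DNAJB9 and ERN1 lowest in both COV434 groups. In untreated COV434 HSP90B1 overlapped HSPA5, and HSPA5 overlapped XBP1, while SDF2L1, HERPUD1 and HYOU1 overlapped in turn, so that no order could be given within either group of neighbours. The summed FPKM of the 10 genes was 1201 to 1342 in untreated and 1155 to 1364 in treated COV434 libraries.

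**Figure D3:**
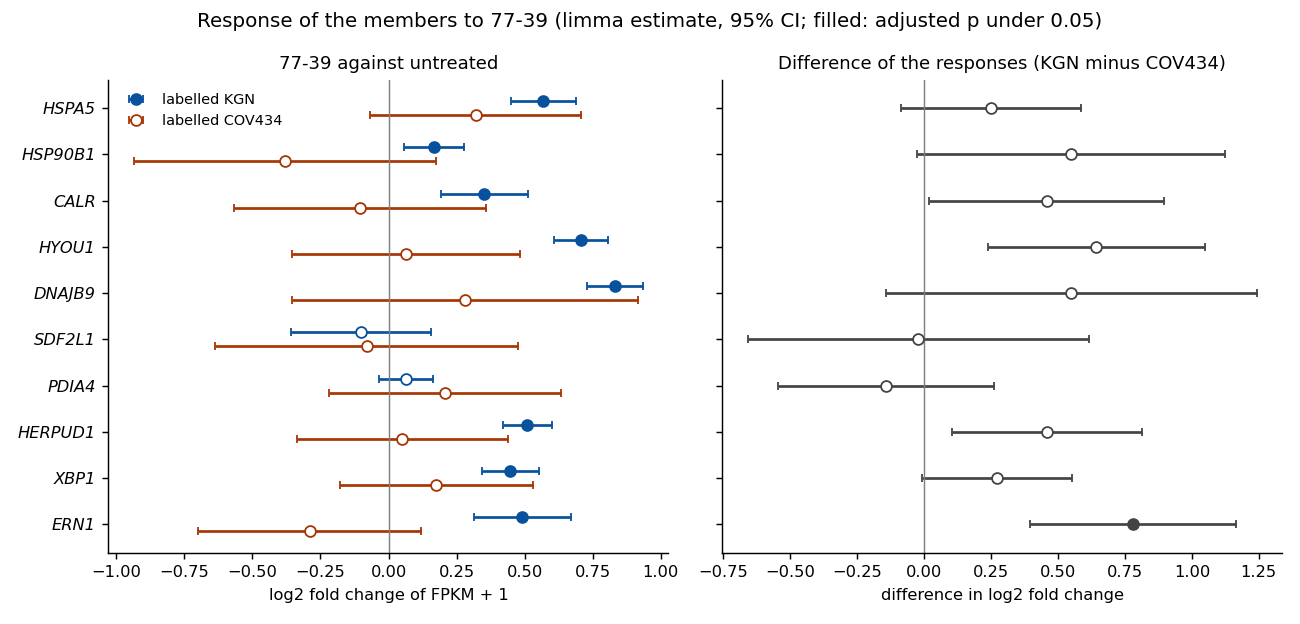
Left, log2 fold change of FPKM + 1 after 77-39 for the 10 genes in KGN and COV434, with 95% intervals of limma. Right, the difference between the 2 log2 fold changes (KGN minus COV434). Filled points have an adjusted p-value under 0.05, which holds for 8 genes in KGN, 0 in COV434 and ERN1 in the difference.

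A call in KGN and none in COV434 does not show that the lines differed. The difference of the responses was therefore tested as the interaction over all 12 libraries. That fit shares the spread of both lines, although replicates lay further apart in COV434, and its p-values do not allow for this. Only ERN1 passed, with a log2 fold change higher in KGN by 0.78 (SE 0.175, limma adjusted p = 0.0358), where 1.85% of the 13127 genes tested were called in that direction and 1.74% in the other. ERN1 was higher in treated KGN and lower in treated COV434 libraries by mean. Its call was lost with 0.1 in place of 1 as the pseudocount, with a looser filter (a mean of 0.1 FPKM) or none, with TPM, and in 9 of 12 fits that left out a library. At an unadjusted p-value under 0.05, 4 of the 10 genes, CALR, HYOU1, HERPUD1 and ERN1, responded more strongly in KGN, against 9.59% of all genes, and none more weakly, against 8.44%. For HYOU1 the difference was 0.64 (95% interval 0.24 to 1.05, limma adjusted p = 0.0871) and for HERPUD1 0.46 (95% interval 0.10 to 0.81, adjusted p = 0.156).

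With the library number as a block, HERPUD1 joined ERN1 past the threshold (adjusted p = 0.0416), where 2.06% of genes were called in that direction. At an unadjusted p-value under 0.05 the block gave 6 of the 10, adding HSP90B1 and DNAJB9 to the 4 genes above, against 11.5% of genes. Without untreated library 1 of COV434, ERN1, HSP90B1 and HERPUD1 were called, and without untreated library 2 of COV434 it was HYOU1 and not ERN1. HSPA5, upregulated in KGN and highest in treated COV434, gave a difference of 0.25 with a 95% interval of -0.09 to 0.59.

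Untreated levels were compared between the lines, which answers how the ER genes stood before treatment in these libraries and not in types of tumor. Of the 10 genes, 5 had a lower level in untreated KGN at an adjusted p-value under 0.05 and 0 a higher one, where 36.4% of the 13098 genes tested were lower and 32.6% higher. The count of 5 is not far above the share of all genes, so it is not read as a trait of the 10. CALR, at 202 ± 15.9 FPKM in KGN and 589 ± 85.1 FPKM in COV434 (SD, n = 3), differed most, by -1.53 on the log2 scale (SE 0.144, limma adjusted p = 9.65e-05). XBP1 followed with a log2 difference of -1.42, at 50.6 ± 1.56 and 137 ± 6.28 FPKM. HSPA5, at 59.8 ± 2.96 FPKM in KGN and 154 ± 21.4 FPKM in COV434, differed by -1.34. Its level in treated KGN, at most 90.8 FPKM, stayed under the lowest untreated COV434 library at 131 FPKM.

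HERPUD1 and SDF2L1 differed by -0.96 and -0.82 on the log2 scale (limma adjusted p = 0.000354 and 0.00215). For HSP90B1, PDIA4, HYOU1, DNAJB9 and ERN1 the log2 differences ran from -0.39 to -0.02, and none passed the test. Rescaling FPKM to TPM moved the median of all genes from -0.02 to 0.38, and voom on recovered reads moved it to 0.18. The 5 lower genes stayed called under every scaling. DNAJB9, ERN1, HYOU1 and PDIA4 turned to higher in KGN with TPM without passing the test.

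**Figure D4:**
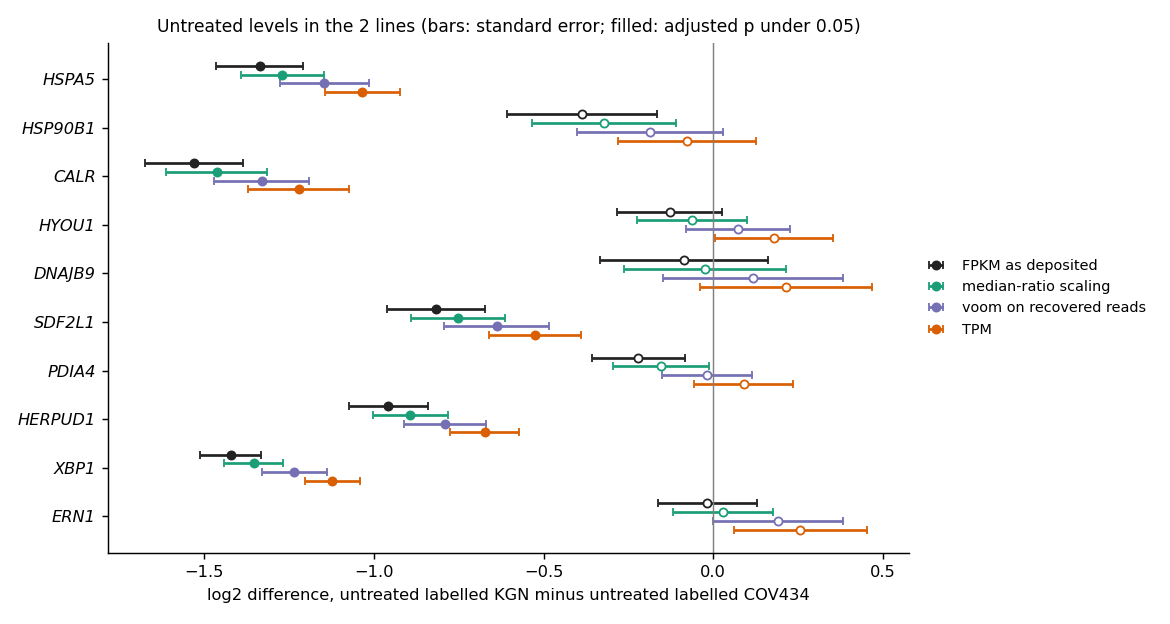
Log2 difference between untreated KGN and untreated COV434 for the 10 genes under 4 scalings of the values, with standard errors of limma. Filled points have an adjusted p-value under 0.05, which holds for CALR, XBP1, HSPA5, HERPUD1 and SDF2L1 under all 4, and for none of the other 5 genes under any of the 4.

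The wider pathway was read from a list of 91 other genes of ER folding, UPR signaling, ERAD and secretion, of which 89 could be tested in each line. This list too was chosen with earlier results of these data known. In KGN 38 were upregulated and 2 downregulated, where 17.6% and 16.4% of all genes were, with a median log2 fold change of 0.17. These shares are also the background for the KGN counts by role that follow, where the lists are small. With the spread of all 12 libraries shared, 11 were upregulated and 1 downregulated. CDNF and DERL3 were under the filter in KGN, and ERO1B and DERL3 in COV434.

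Among 8 UPR sensors and the enzymes that activate them, 3 rose and 1 fell in KGN. ATF6 itself went from 9.73, 9.84 and 9.71 to 17.1, 16.2 and 16.0 FPKM (log2 fold change 0.69, SE 0.0434, limma adjusted p = 0.000209), and EIF2AK3, which encodes PERK, from 2.37, 2.47 and 2.59 to 4.27, 3.91 and 4.24 FPKM. RTCB, the ligase that joins the XBP1 exons after IRE1α has cut them, was the gene that fell, from 30.2, 33.0 and 31.7 to 27.2, 26.3 and 26.3 FPKM (log2 fold change -0.24, limma adjusted p = 0.00873, and 0.218 with the spread of all 12 libraries shared). Transcripts of all 3 sensor genes, ERN1, ATF6 and EIF2AK3, were thus higher after 77-39 in KGN.

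Of 9 genes of the PERK branch, 5 rose in KGN and 0 fell. ATF3, a transcription factor induced downstream of ATF4, increased the most of the whole list, from 8.33, 8.65 and 8.21 to 26.2, 27.0 and 26.2 FPKM (log2 fold change 1.55, SE 0.0414, limma adjusted p = 1.22e-05). DDIT3, which encodes the proapoptotic factor CHOP, went from 53.3, 54.5 and 54.7 to 98.2, 97.8 and 101 FPKM (log2 fold change 0.86, limma adjusted p = 0.000116, and 0.253 with the shared spread), while ATF4 mRNA measured 260.4, 277 and 258 FPKM without and 224, 235 and 245 FPKM with 77-39 and did not pass the test (adjusted p = 0.0541).

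Of 13 ER chaperones and co-chaperones tested in KGN, 7 rose and 0 fell, led by HSPA13, an atypical Hsp70 of microsomes, at 26.1, 24.5 and 28.5 FPKM in untreated and 46.3, 48.7 and 47.8 FPKM in treated libraries (log2 fold change 0.83, limma adjusted p = 0.000341, and 0.0509 with the shared spread). Of 12 disulfide enzymes 4 rose and 0 fell. The largest change among them was that of ERO1B, an oxidase that recharges disulfide isomerases, from 1.58, 1.75 and 1.88 to 3.14, 2.56 and 2.71 FPKM (log2 fold change 0.47, limma adjusted p = 0.00634, and 0.0749 with the shared spread). ERO1B is also among the 4 listed genes with an ERSE.

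Of 19 ERAD genes 8 rose and 0 fell. SEL1L, the adaptor that stabilizes HRD1 and works in the same complex as HERPUD1, went from 9.45, 9.46 and 9.09 to 15.7, 15.7 and 14.8 FPKM (log2 fold change 0.67, limma adjusted p = 0.000247). Of 28 genes of translocation, glycosylation and retrieval, 11 rose and 1 fell. SEC11C, a catalytic subunit of the signal peptidase, rose from 8.31, 6.93 and 7.83 to 12.03, 13.3 and 12.5 FPKM (log2 fold change 0.65, limma adjusted p = 0.00111, and 0.0759 with the shared spread). KDELR3, a receptor that returns ER proteins from the Golgi, fell from 13.3, 13.4 and 14.0 to 9.80, 9.12 and 10.3 FPKM (log2 fold change -0.44, limma adjusted p = 0.00176).

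**Figure D5:**
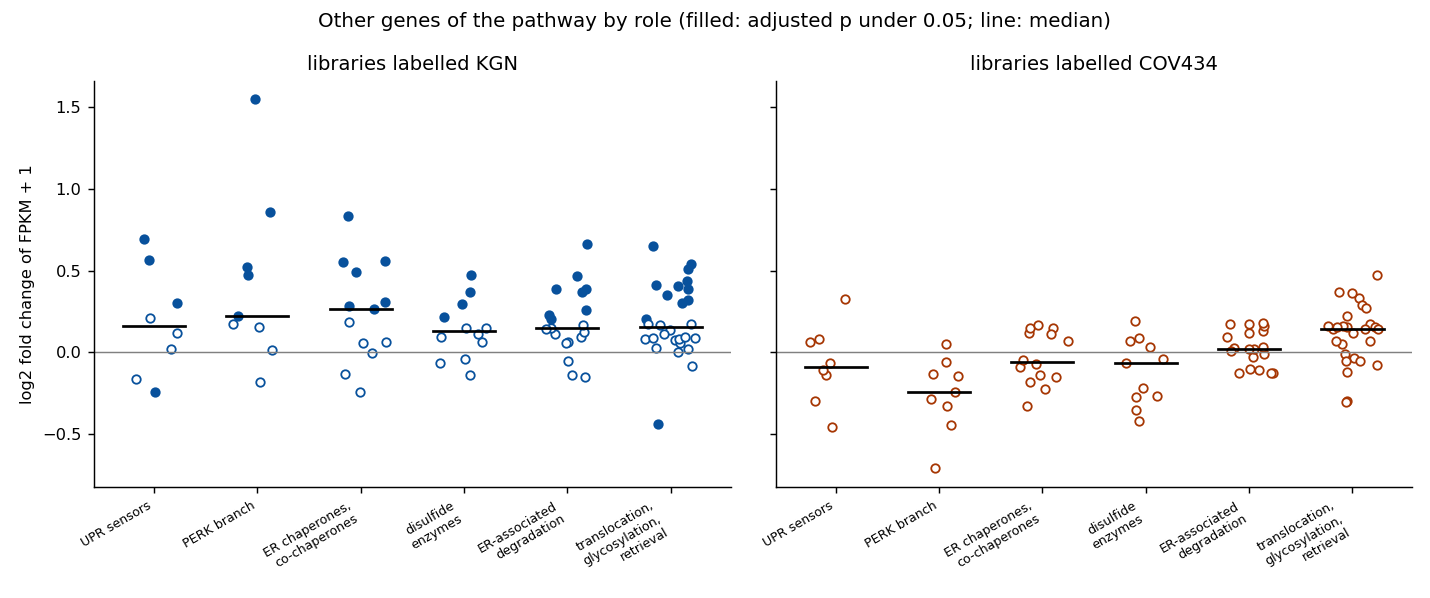
Log2 fold change of FPKM + 1 after 77-39 for the other genes of the pathway, grouped by role, in KGN (left) and COV434 (right). Each point is a gene, lines are medians and filled points have an adjusted p-value under 0.05, which holds for 38 upregulated and 2 downregulated genes in KGN and 0 in COV434.

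In COV434 0 of the 89 genes passed the adjusted threshold in limma, where 0.00829% and 0.0332% of all genes were called higher and lower. At an unadjusted p-value under 0.05, 2 were higher and 3 lower, against 3.52% and 4.49% of all genes. The median log2 fold change was 0.02, against -0.02 over all genes. DDIT3 had 10.1, 23.3 and 14.5 FPKM in untreated and 4.29, 17.5 and 15.9 FPKM in treated COV434 libraries, a log2 fold change of -0.45 (95% interval -1.56 to 0.66). The difference between the lines passed the test for 4 of the 89 genes, 3 higher and 1 lower in KGN. These shares lay near the 1.85% and 1.74% of all genes, so the adjusted counts are no result about the pathway. Before adjustment, with the same cut-off of 0.05, 21 of the 89 responded more strongly in KGN and 1 more weakly. Among all genes 9.59% and 8.44% did so. The median difference of the 89 was 0.20, against 0.01 over all genes. Because the list was chosen with earlier results known, these shares are a background and not a test. By gene, the difference was 1.79 for ATF3 (limma adjusted p = 0.000377) and 0.86 for EIF2AK3 (0.0177). For QSOX1, a sulfhydryl oxidase of the secretory pathway, it was 0.59 (0.0394), and for KDELR3 -0.71 (0.0303), all as adjusted p-values. EIF2AK3 and QSOX1 were named after their values were seen. With the library number as a block EIF2AK3 lost its call (adjusted p = 0.0513) and DDIT3 gained one (adjusted p = 0.0475).

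Across the 12 libraries, after the mean of each line was taken out, the 5 genes whose log2(FPKM + 1) ran most like that of HSPA5 were ANXA4 (Pearson r = 0.960), PPP3CB (0.955), SPCS3 (0.951), FTL (0.950) and TUBB2A (0.944), among 10234 genes. SPCS3, a subunit of the signal peptidase, measured 8.09 to 9.02 FPKM in untreated and 12.1 to 13.1 FPKM in treated KGN, and 14.3 ± 2.00 and 15.5 ± 0.107 FPKM (SD, n = 3) in COV434. Among the other 9 genes XBP1 (r = 0.883) and HERPUD1 (0.869) were most like HSPA5, and HSP90B1 (0.134) and SDF2L1 (-0.0424) least. The libraries share treatment and depth, so these coefficients describe the 12 libraries and carry no test.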

How the data were processed

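RNA sequencing of 12 libraries was used, 3 for each of the untreated and 77-39 groups of KGN and COV434, as given by the labels. The authors deposited FPKM per gene, and coordinates and gene lengths match GENCODE release 29 on GRCh38. The submitters' processing notes name HISAT2 2.0.5 and the mouse builds mm10 and mm8, and the extraction text on the labels speaks of retinas, so the kit and strand setting are not taken as settled. The counting tool is not given in the sources used here. FPKM times gene length fell on whole reads (tolerance 0.05) for 100% of values above 0, which gave the reads per library. Their counts, 15547851 to 18280415 per library, limit precision, and 3 reads on a gene of 1 kb amount to 0.152 to 0.200 FPKM.

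Genes whose FPKM averaged 1 or more over the libraries of a fit were tested on log2(FPKM + 1) with limma 3.58.1 in R 4.3.3 (lmFit, eBayes with a trend, two-sided, Benjamini-Hochberg adjustment over all genes tested), for each line, for the untreated libraries and, as an interaction, over all 12 libraries. Fold changes on this scale understate those of low genes. Scripts in Python 3.11.15 and R were tested on simulated data. The 10 genes and the lists of 91 pathway genes in 6 roles were chosen with earlier results of these data known. Named besides the 10 genes are, per role and line, the called gene with the largest change in each direction, DDIT3, ATF4, SIRT3 and the 5 genes most like HSPA5.

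Whether library numbers pair was checked from the deviations of same-numbered libraries from their group means. Across genes their correlations were 0.400, 0.474 and 0.166 in COV434, and -0.0164, -0.0180 and -0.0190 in KGN. Differently numbered libraries gave -0.469 to 0.154 in COV434 and -0.0126 to 0.0332 in KGN. In COV434 the same-numbered values of libraries 1 and 2 stood apart. That of library 3 did not, as untreated library 3 with treated library 2 gave 0.154. In KGN no pairing was seen. Nothing in the labels states a pairing. Other settings tried were 0.1 as the pseudocount, a looser filter (0.1 FPKM) or none, TPM, median-ratio scaling, voom on recovered reads, a shared fit of all libraries, the replicate block and each library left out. Promoters are RefSeq sequences of GRCh38.p14.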

Additional observations from a re-analysis of the deposited data

Results flagged for a closer look

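The responses of 5 genes to 77-39 differed between the libraries labelled KGN and COV434 by the interaction of line and treatment, at a limma adjusted p-value under 0.05 over all genes tested, where 1.85% of all genes were higher and 1.74% lower. They are 4 of the 89 pathway genes tested, a share near that of all genes, and 1 of the 10 genes. On the log2 scale, as KGN minus COV434, the difference was 0.78 for ERN1, the IRE1α gene, 0.86 for EIF2AK3, the PERK gene, 1.79 for the PERK branch transcription factor ATF3, 0.59 for the sulfhydryl oxidase gene QSOX1 and -0.71 for the retrieval receptor gene KDELR3. ERN1, EIF2AK3, ATF3 and QSOX1 had a positive log2 fold change in KGN and a negative one in COV434, and KDELR3 the opposite. Their adjusted p-values were 0.0358, 0.0177, 0.000377, 0.0394 and 0.0303. Over the alternatives they ranged from 0.0190 to 0.109 for ERN1, from 0.00314 to 0.0622 for EIF2AK3, from 0.000234 to 0.00480 for ATF3, from 0.0259 to 0.119 for QSOX1 and from 0.0107 to 0.0989 for KDELR3, so that of the 5 only ATF3 passed the threshold under every alternative run.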

How the results depend on the processing

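For the 10 genes and the called pathway genes with the largest change per role in KGN, 238 of 252 alternative values kept their direction and side of the threshold. The other 14 lost the call, 9 of them for HSP90B1. DDIT3, ATF4, EIF2AK3 and QSOX1 are not in this count. In KGN, DDIT3 lost its call in the shared fit (limma adjusted p = 0.253), and ATF4 reached an adjusted p of 0.0179 in an alternative. EIF2AK3 and QSOX1 kept their calls. A shared fit of all 12 libraries gave 6 of the 10 genes upregulated, without HSP90B1 and CALR, and for the pathway list 11 upregulated and 1 downregulated in KGN and 1 upregulated in COV434. Downregulated pathway genes in KGN numbered 4 with median-ratio scaling and with voom, and 2 to 6 with a library left out, the 6 without untreated library 1. In the interaction, the count of the 10 genes was 0 with 0.1 as the pseudocount, a looser filter (0.1 FPKM) or none, and TPM, 2 with the replicate block and 0 to 3 with a library left out. The replicate block changed no other call of the 10 genes at the adjusted or unadjusted threshold than those named beside the results.

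Signs turned for values under the threshold. TPM gave -0.0106 for HERPUD1 in COV434, 0.0305 for SDF2L1 in the interaction, and 0.22, 0.26, 0.0892 and 0.18 for DNAJB9, ERN1, PDIA4 and HYOU1 between untreated lines. Voom gave 0.12, 0.19 and 0.0726 for DNAJB9, ERN1 and HYOU1 there, and median-ratio scaling 0.0289 for ERN1. With a library left out, COV434 values ran from -0.0613 to 0.14 for HERPUD1, from -0.31 to 0.14 for SDF2L1 and from -0.0797 to 0.22 for HYOU1, the interaction of SDF2L1 from -0.24 to 0.21, and untreated differences from -0.33 to 0.19 for DNAJB9, from -0.15 to 0.12 for ERN1 and from -0.27 to 0.0223 for HYOU1. Without untreated library 1 of COV434 HSP90B1 was also called lower in untreated KGN (-0.64), and without untreated library 2 PDIA4 was (-0.36). The cause of these changes was not tested, beyond the fewer libraries or the larger shared spread of a fit. Depth was similar in both lines, at 15547851 to 18135160 reads in KGN and 16440143 to 18280415 in COV434.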
